A study of Mus musculus with 3 samples.

Results

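The matrix metalloproteinases and their tissue inhibitors were examined in mandibular condyles as 9 genes, taken by symbol from the 26970 genes of the deposited expression table. The members are Mmp2, Mmp3, Mmp11, Mmp13, Mmp14, Mmp16, Timp1, Timp2 and Timp3. At the age of 4 months, RNA was sequenced from condyles of WT, Dspp+/- and Dspp-/- mice, in which the gene of dentin sialophosphoprotein was intact, deleted in 1 allele or deleted in both alleles. The deletion is global and constitutive, so every tissue of the mutant mice carries it. Each genotype had 1 library. According to the methods, cartilage and subchondral bone were kept together, and for WT and Dspp+/- a library was made from pooled condyles of 3 animals, while for Dspp-/- the number of animals is not stated. No spread between mice was therefore measured, no test between genotypes was possible, and all differences below are between single libraries.

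Matrix metalloproteinases (MMPs) are zinc-dependent proteases that are made as inactive precursors and cut collagens, proteoglycans and other proteins of the extracellular matrix. Tissue inhibitors of metalloproteinases (TIMPs) bind the active site of these enzymes and block it. In the condyle, MMPs are known for the removal of calcified cartilage and the turnover of bone matrix, and in osteoarthritis for the breakdown of articular cartilage.

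The 6 MMP members share the motif that holds the catalytic zinc ion, in which 3 histidines are spaced over 11 codons. The coding sequences of this site, read from the GENCODE M21 transcripts, are shown because the site is what the enzymes of the family have in common, with the codons of the 3 zinc-binding histidines in capitals.
Mmp13: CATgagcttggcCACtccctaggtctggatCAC
Mmp3: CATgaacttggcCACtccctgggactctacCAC
Mmp11: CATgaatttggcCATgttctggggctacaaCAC
Mmp2: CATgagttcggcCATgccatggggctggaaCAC
Mmp14: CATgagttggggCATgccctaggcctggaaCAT
Mmp16: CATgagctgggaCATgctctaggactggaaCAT
Of the 33 bases, 18 were identical in all 6 genes. The membrane-bound enzymes Mmp14 and Mmp16 were the most alike pair, with 29 of 33 bases identical (87.9%). Mmp13 and Mmp3, which lie in the same gene cluster on chromosome 9, shared 27 bases (81.8%), as did Mmp2 and Mmp14, which lie on different chromosomes. The stromelysins Mmp3 and Mmp11 shared 24 bases (72.7%). Mmp3 and Mmp14 were the least alike, with 21 bases (63.6%). None of the 3 TIMP members holds the site.

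The members are given at the positions the deposited table gives, whose build is not named. The secreted collagenase and stromelysins are Mmp13 (ENSMUSG00000050578) on chromosome 9 from 7272514 to 7283331, Mmp3 (ENSMUSG00000043613) on chromosome 9 from 7445822 to 7455975 and Mmp11 (ENSMUSG00000000901) on chromosome 10 from 75759056 to 75772330. The gelatinase is Mmp2 (ENSMUSG00000031740) on chromosome 8 from 93553919 to 93580048. The membrane-bound enzymes are Mmp14 (ENSMUSG00000000957) on chromosome 14 from 54669069 to 54682821 and Mmp16 (ENSMUSG00000028226) on chromosome 4 from 17852893 to 18119145. The inhibitors are Timp1 (ENSMUSG00000001131) on chromosome X from 20736405 to 20740974, Timp2 (ENSMUSG00000017466) on chromosome 11 from 118191895 to 118246566 and Timp3 (ENSMUSG00000020044) on chromosome 10 from 86136236 to 86185370. Only Mmp13 and Mmp3, and Mmp11 and Timp3, share a chromosome, and values are totals over all exons of a gene.

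The deposited values were read as FPKM, fragments per length of exon and per size of library, so levels can be compared between genes. The share of mitochondrial genes in the total FPKM was 25.0% in WT, against 36.9% in Dspp+/- and 37.3% in Dspp-/-, and FPKM does not adjust for such a shift. The fragments behind each value were recovered from the values, with depths of 20241576 fragments in WT, against 23613621 in Dspp+/- and 22253159 in Dspp-/-. The intervals given with a fold are 95% Clopper-Pearson intervals of these fragments, which cover counting error only. Xist had 2 fragments in WT, against 12084 in Dspp+/- and 10563 in Dspp-/-, so the sex of the pooled animals and the genotype cannot be told apart. Dspp was not analysed here, and it therefore gave no check of the genotype labels.

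All 9 members were lower in Dspp+/- than in WT, as were 43.7% of all compared genes. In Dspp-/-, 8 of the 9 were lower than in WT, against 49.3% of the compared genes, and Timp3 was higher, as were 50.7%. For 8 members, Dspp+/- had the lowest level, Dspp-/- an intermediate level and WT the highest, an order found in 17.5% of the 13026 compared genes, those that averaged 1 FPKM or more. On the log2(FPKM + 1) scale, which understates differences of genes with low FPKM, 5 of 9 members were at least 2-fold lower in Dspp+/-, against 2.86% of all compared genes. No member was at least 2-fold higher, against 4.88% of all compared genes. When the libraries were scaled without mitochondrial, hemoglobin, immunoglobulin and skeletal muscle genes, 3 of 9 members were at least 2-fold lower in Dspp+/-. With that scaling, 260 of the 13026 compared genes were at least 2-fold lower there. In Dspp-/-, no member was at least 2-fold lower or higher, against 1.37% and 4.05% of all compared genes. The median log2 ratio of the members to WT was -1.10 in Dspp+/- and -0.46 in Dspp-/-, while the median of all compared genes was 0.058 and 0.0070. Both comparisons use the same WT library, so their directions are not independent of each other. Between the mutant libraries, all 9 members were lower in Dspp+/- than in Dspp-/-, a direction shared by 44.7% of the compared genes, while 55.3% were higher there. In bulk tissue, fewer cells of a type and less RNA per cell cannot be told apart.

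**Figure D1:**
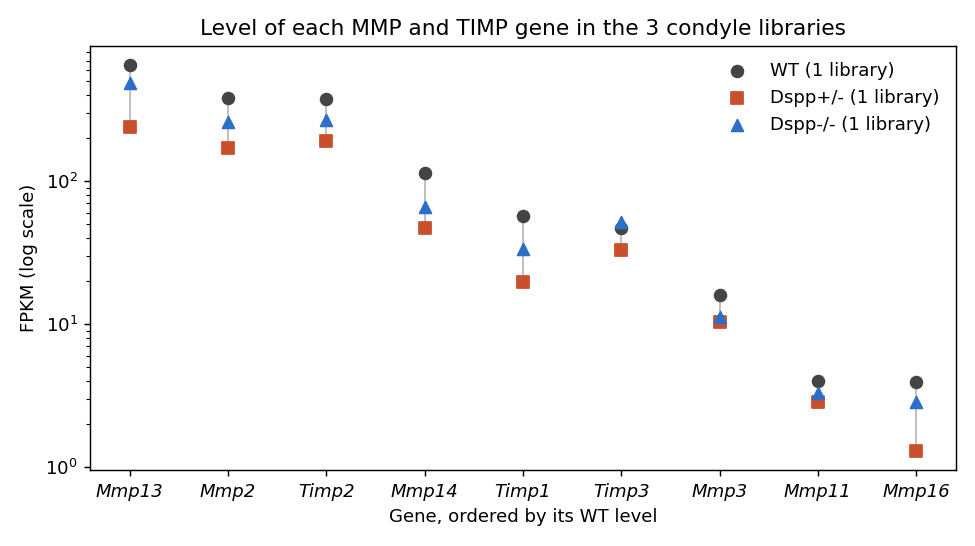
FPKM of each member (log scale) in the WT, Dspp+/- and Dspp-/- library, 1 point per library, with genes ordered by their WT level and a grey line joining the lowest and highest value. Mmp13 was highest in each library, and the Dspp+/- point is the lowest of the 3 for all 9 genes.

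Mmp13 encodes collagenase 3, the enzyme that hypertrophic chondrocytes and osteoblasts use to cleave type I and type II collagen. It was the most abundant member in every library, with 649 FPKM in WT, against 240 in Dspp+/- and 487 in Dspp-/-. Its level was above that of 99.6% to 99.9% of all genes in the table. Dspp+/- was lowest, at 0.370 times WT (interval 0.363 to 0.377), and Dspp-/- was at 0.751 times WT (0.739 to 0.762). The log2 ratios were -1.43 and -0.41. Between the mutant libraries, Dspp+/- was at 0.492 times Dspp-/- (0.483 to 0.502), and Mmp13 was the 1 member at least 2-fold lower in Dspp+/- than in Dspp-/- on the log2(FPKM + 1) scale, against 0.852% of all compared genes. No member was at least 2-fold higher in that comparison, against 0.798%. On the FPKM scale, Mmp16 was also past 2-fold there, at 0.457 times Dspp-/- (0.393 to 0.531).

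Mmp2, gelatinase A, degrades denatured collagen and type IV collagen and is made by many connective tissue cells. Its level was 381 FPKM in WT, against 171 in Dspp+/- and 259 in Dspp-/-. All 3 libraries held it among the most abundant genes. The fold over WT was 0.449 in Dspp+/- (0.440 to 0.458) and 0.681 in Dspp-/- (0.668 to 0.693), with log2 ratios of -1.15 and -0.55.

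Mmp14 encodes MT1-MMP, which sits in the cell membrane, cleaves fibrillar collagen and activates the Mmp2 precursor at the cell surface together with Timp2. It stood at 114 FPKM in WT, against 47.3 in Dspp+/- and 66.1 in Dspp-/-. Among the MMP members it had the lowest level relative to WT in Dspp-/-, at 0.581 times WT (0.565 to 0.597), and in Dspp+/- it was at 0.416 times WT (0.404 to 0.428). Mmp16 encodes MT3-MMP, a related membrane-bound enzyme. It was much less abundant, with 3.91 FPKM in WT, against 1.29 in Dspp+/- and 2.83 in Dspp-/-. On the FPKM scale Mmp16 had the lowest fold of the 9 members in Dspp+/-, at 0.331 times WT (0.286 to 0.382). The interval is wide because the gene rested on 686 fragments in WT and 265 in Dspp+/-. In Dspp-/- it was at 0.724 times WT (0.646 to 0.811).

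Mmp3, stromelysin 1, cuts proteoglycans and activates other MMP precursors. Its level was 15.9 FPKM in WT, against 10.4 in Dspp+/- and 11.3 in Dspp-/-. The mutant libraries lay close to each other, with folds over WT of 0.652 (0.575 to 0.739) in Dspp+/- and 0.708 (0.624 to 0.802) in Dspp-/-. Mmp11, stromelysin 3, differs from most secreted MMPs in that furin cleaves its precursor inside the cell. It was at 4.02 FPKM in WT, against 2.84 in Dspp+/- and 3.30 in Dspp-/-. Its folds over WT were 0.705 (0.578 to 0.860) and 0.821 (0.676 to 0.997), and 155 of its 2778 exon bases (5.58%) overlap Chchd10 on the opposite strand, a gene at 75.03, 125 and 56.3 FPKM in WT, Dspp+/- and Dspp-/-. Whether strand was used in counting is not given in the sources used here. For Mmp3 and Mmp11, the counting interval of the fold between the mutant libraries holds 1, with a Dspp+/- to Dspp-/- fold of 0.922 (0.806 to 1.05) for Mmp3 and 0.859 (0.701 to 1.05) for Mmp11. For the other 7 members that interval lies below 1.

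Timp1 encodes a secreted inhibitor that blocks most soluble MMPs. It had 57.4 FPKM in WT, against 19.6 in Dspp+/- and 33.6 in Dspp-/-. In Dspp+/- it had the largest difference of the 9 members on the log2(FPKM + 1) scale, at -1.50, or 0.342 times WT (0.305 to 0.384). In Dspp-/- the log2 ratio was -0.76, at 0.585 times WT (0.530 to 0.646). Timp1 is the 1 member on the X chromosome and lies inside Syn1 on the opposite strand, with no shared exon base.

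Timp2 blocks MMPs and also takes part in the activation of Mmp2 by Mmp14. It was the most abundant inhibitor, at 375 FPKM in WT, against 192 in Dspp+/- and 267 in Dspp-/-. In Dspp+/- it was just short of the 2-fold limit, at 0.513 times WT (0.503 to 0.522) with a log2 ratio of -0.96. In Dspp-/- it was at 0.711 times WT (0.699 to 0.724).

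Timp3 is bound to the extracellular matrix and also inhibits ADAM and ADAMTS proteases, among them aggrecanases. Its level was 47.2 FPKM in WT, against 32.9 in Dspp+/- and 52.1 in Dspp-/-. It was the 1 member that was higher in Dspp-/- than in WT, by 1.10 times (1.07 to 1.14), while in Dspp+/- it was at 0.696 times WT (0.673 to 0.719). The log2 ratios were -0.51 in Dspp+/- and 0.14 in Dspp-/-, and when FPKM was rescaled to TPM the value in Dspp-/- turned to -0.038. Timp3 lies inside Syn3 on the opposite strand, and 1733 of its 8144 exon bases (21.3%) are shared with Syn3. Syn3 was listed at 0.040, 0.055 and 0.077 FPKM in WT, Dspp+/- and Dspp-/-.

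**Figure D2:**
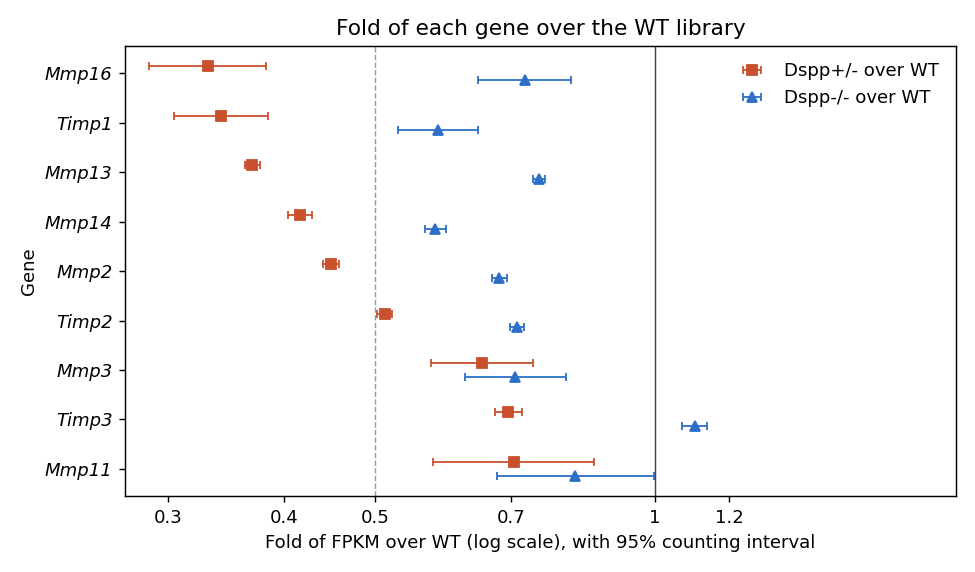
Fold of FPKM over WT for each member (log scale) in Dspp+/- and Dspp-/-, with 95% counting intervals that leave out the spread between mice, a solid line at 1 and a dashed line at 0.5. All 9 Dspp+/- intervals lie below 1, 8 Dspp-/- intervals lie below 1, and the Dspp-/- interval of Timp3 lies above 1.

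The order of levels was nearly the same in the 3 libraries. In WT it ran Mmp13, Mmp2, Timp2, Mmp14, Timp1, Timp3, Mmp3, Mmp11 and Mmp16. In both mutant libraries Timp2 stood above Mmp2 and Timp3 above Timp1, and the other places were the same. With 1 library per genotype, the spread that would separate neighbours in this order was not measured. Mmp13 made up 55.6% of the summed FPKM of the MMP members in WT, against 50.8% in Dspp+/- and 58.7% in Dspp-/-. Timp2 made up 78.2%, 78.6% and 75.7% of the summed FPKM of the TIMP members. The share of Timp1 among the inhibitors was 11.96% in WT, against 8.02% in Dspp+/- and 9.53% in Dspp-/-, while that of Timp3 was 9.84%, 13.4% and 14.8%.

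A ratio of genes within a library does not depend on how the library was scaled. The summed FPKM of the 6 MMP members over that of the 3 TIMP members was 2.43 in WT, against 1.93 in Dspp+/- and 2.35 in Dspp-/-. The ratio was thus lower in Dspp+/- and close to WT in Dspp-/-. Without Mmp13 and Timp2, the most abundant enzyme and inhibitor, it was 4.95, 4.43 and 4.00, so the place of Dspp-/- depended on those genes. Among the genes of the Mmp2 activation complex, Mmp14 over Timp2 was 0.303 in WT, against 0.246 in Dspp+/- and 0.248 in Dspp-/-. Relative to WT, with a 95% interval from the fragments of the 4 values on the log scale, this ratio was 0.811 in Dspp+/- (0.783 to 0.840) and 0.817 in Dspp-/- (0.791 to 0.843). Mmp2 over Timp2 was 1.01, 0.888 and 0.971, and relative to WT it was 0.876 (0.852 to 0.900) and 0.957 (0.933 to 0.982). Timp3 over Timp2 was higher in both mutant libraries, at 0.126 in WT, against 0.171 in Dspp+/- and 0.195 in Dspp-/-.

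The main substrates of the enzymes were lower as well. The list of 12 matrix genes held 4 fibrillar collagen genes (Col1a1, Col1a2, Col2a1 and Col3a1), Col10a1, Acan, Fn1, Bgn, Dcn, Lum, Fmod and Comp. All 12 were lower than WT in both mutant libraries, 7 of them at least 2-fold in Dspp+/- and 4 in Dspp-/-, with median log2 ratios of -1.41 and -0.81. In Dspp+/- the 7 were the 4 fibrillar collagens, Col10a1, Acan and Lum, and in Dspp-/- the 4 were Col2a1, Col10a1, Acan and Comp. Col1a1, the most abundant, had 6675 FPKM in WT, against 1719 in Dspp+/- and 3610 in Dspp-/-. Col10a1, the collagen of hypertrophic cartilage, had 246, 17.3 and 107 FPKM, the largest difference of the list in Dspp+/-. Relative to the 4 fibrillar collagens, of which Col1a1 and Col1a2 were the most abundant, both families of members were a larger quantity in the mutant libraries. Per 1000 FPKM of the 4 fibrillar collagens, the MMP members summed to 108 FPKM in WT, against 175 in Dspp+/- and 143 in Dspp-/-. The TIMP members summed to 44.5, 90.8 and 60.9 FPKM on the same scale. This did not hold for every gene of the list. The 9 members together summed to 0.435 times WT in Dspp+/- and 0.718 in Dspp-/-. Fn1, Bgn, Dcn and Lum were less reduced in both, at 0.437 to 0.852 and 0.757 to 0.956 times WT. Fmod and Comp were less reduced in Dspp+/- only, and the 4 fibrillar collagens, Col10a1 and Acan were more reduced in both.

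The ratios of single members to matrix and cell type genes were chosen after values had been seen. Mmp13 per 1000 FPKM of Col1a1 was 97.3 FPKM in WT, against 140 in Dspp+/- and 135 in Dspp-/-. Relative to WT this was 1.44 (1.41 to 1.46) and 1.39 (1.37 to 1.41). Mmp13 over Col10a1 was 2.64, 13.9 and 4.54, which in Dspp+/- was 5.27 times WT (4.96 to 5.59). The level of Mmp13 was therefore less reduced than that of either collagen in both mutant libraries. Mmp13 over Ctsk, the cathepsin K gene of osteoclasts, differed less, with 0.752 in WT, against 0.861 in Dspp+/- and 1.01 in Dspp-/-. Ratios of Mmp2 went both ways. Mmp2 over Pdgfra, a receptor gene of fibroblasts, was 17.5, 12.1 and 13.3, or 0.694 (0.661 to 0.729) and 0.762 (0.728 to 0.798) times WT. Mmp2 over Col3a1, also listed here as a fibroblast gene, was 0.661, 0.922 and 0.697. Relative to WT this was 1.40 (1.36 to 1.43) and 1.05 (1.03 to 1.08). Mmp2 over Col1a1 was 1.74 and 1.26 times WT.

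**Figure D3:**
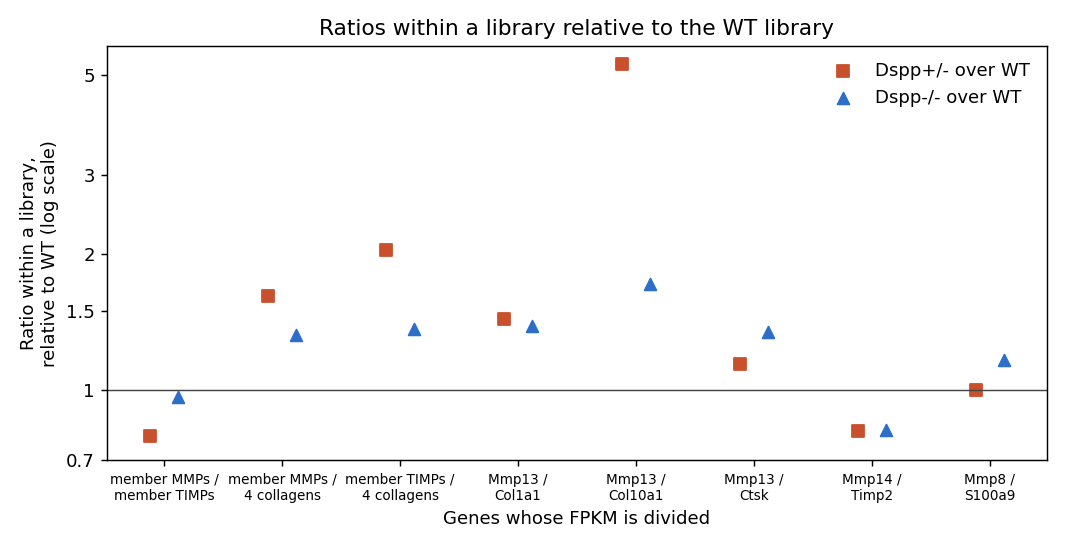
Ratios of FPKM within a library, each divided by its WT value (log scale), for Dspp+/- and Dspp-/-, with 1 point per library and a line at 1. Member MMPs over member TIMPs lie below 1, member MMPs and TIMPs over the 4 fibrillar collagens lie above 1, and Mmp13 over Col10a1 in Dspp+/- is the highest point.

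Markers of several cell types of the condyle differed between the libraries. Their lists share genes with the matrix list above, so these values are not separate from it. Shared are Col1a1 and Col1a2 for osteoblasts, Col2a1 and Acan for chondrocytes, and Col10a1 for hypertrophic chondrocytes. For fibroblasts and tendon, Col3a1, Dcn, Lum and Fmod are shared. The summed level of 7 osteoblast genes was 13400 FPKM in WT, against 3555 in Dspp+/- and 7135 in Dspp-/-, and 7 of 7 were at least 2-fold lower in Dspp+/- and 2 of 7 in Dspp-/-. The summed level of 10 chondrocyte genes was 1113, 172 and 464 FPKM, and of the 9 compared, 8 were at least 2-fold lower in Dspp+/- and 6 in Dspp-/-. The hypertrophic chondrocyte genes Col10a1 and Ihh summed to 263, 22.0 and 113 FPKM. For osteoclasts, 7 genes summed to 1706, 566 and 946 FPKM, with 5 and 1 at least 2-fold lower. For fibroblasts and tendon, 8 genes summed to 2648, 1451 and 1932 FPKM, with 2 and 0 at least 2-fold lower. Single genes of that list did not all share its order, since 3 of the 8 were higher in Dspp+/- than in Dspp-/-, among them Scx with 10.1, 5.32 and 4.66 FPKM, and Tnmd was above WT in Dspp-/-. The osteoblast, chondrocyte, osteoclast and fibroblast sums had the same order as 8 of the 9 members, with Dspp+/- lowest and WT highest.

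The sum of the 5 osteocyte genes had another order, with 902 FPKM in WT, against 372 in Dspp+/- and 359 in Dspp-/-. By single genes, 4 of the 5 were lower in Dspp+/- than in Dspp-/-, as the members were. Only Sost was higher there, with 272 FPKM in WT, against 167 in Dspp+/- and 111 in Dspp-/-. All 5 were lower than WT in both mutant libraries. Neutrophil genes went the other way, as 9 of 9 were at least 2-fold higher in both mutant libraries and summed to 593, 2667 and 3491 FPKM. Between the mutant libraries, 5 of these 9 were lower in Dspp+/- and 4 were at least 2-fold higher there. Erythroid genes summed to 456, 2007 and 2106 FPKM. Macrophage (185, 158 and 156 FPKM), endothelial (110, 128 and 125 FPKM) and synovial lining genes (61.7, 95.9 and 80.2 FPKM) differed less. Although the macrophage sums were below WT, 4 of the 7 genes were higher in Dspp+/- and 2 in Dspp-/-. In Dspp+/-, 1 of the 5 endothelial genes was lower than WT. Of the 3 synovial lining genes, Htra4 was lower there, at 0.465 times WT (0.367 to 0.587). Skeletal muscle genes summed to 8924, 12555 and 10361 FPKM, but of the 6 compared 1 was at least 2-fold lower (Myh4) and 1 at least 2-fold higher (Myh2) in Dspp+/-, and adipocyte genes to 32.99, 17.1 and 89.7 FPKM. No marker gene was at 0 in any library. The part of these cell types in the lower levels of the MMP and TIMP genes was not tested.

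**Figure D4:**
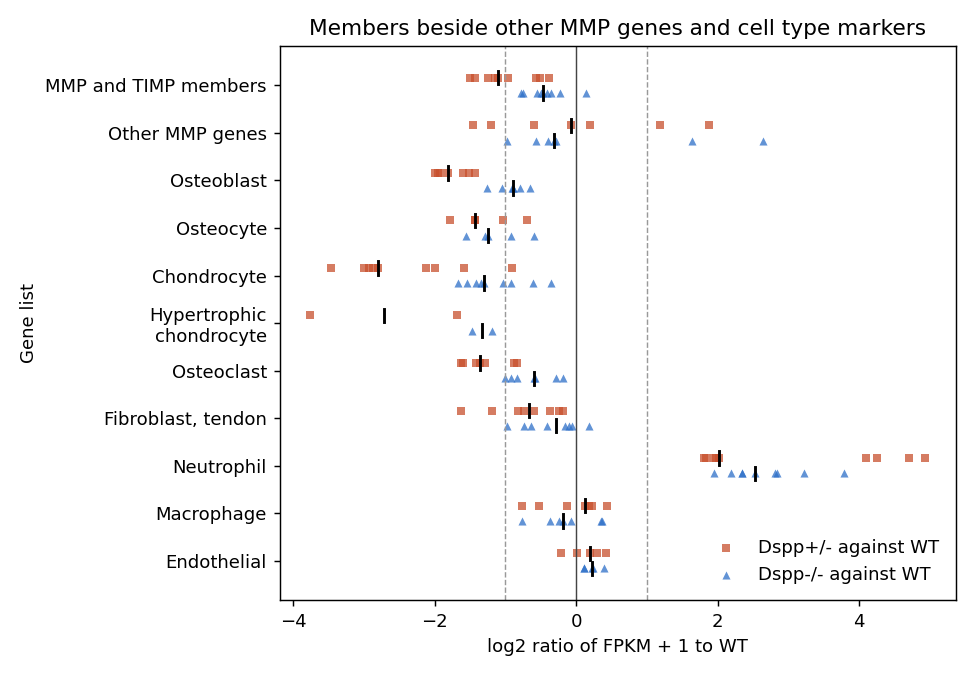
Log2 ratio of FPKM + 1 to WT for each compared gene of the members, of the other MMP genes and of the cell type marker lists, in Dspp+/- and Dspp-/-, with black bars at the medians and dashed lines at 2-fold. Apart from Timp3 in Dspp-/-, the members lie on the same side as osteoblast, osteocyte, chondrocyte and osteoclast genes, neutrophil genes lie on the other side, and the other MMP genes spread over both.

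The other MMP genes did not share one direction. Of 17 listed, 14 were in the table and 7 averaged 1 FPKM or more. In Dspp+/-, 2 of the 7 were at least 2-fold lower and 2 at least 2-fold higher. In Dspp-/-, none was at least 2-fold lower and 2 were at least 2-fold higher. At any size, 4 were lower and 3 higher in Dspp+/-, and 5 lower and 2 higher in Dspp-/-. Mmp9, the gelatinase B of osteoclasts and neutrophils, was the most abundant, with 552 FPKM in WT, against 239 in Dspp+/- and 371 in Dspp-/-. Its log2 ratios were -1.21 and -0.57, near those of Mmp2. Mmp23, a membrane-anchored enzyme, had 11.5, 3.55 and 5.38 FPKM and log2 ratios of -1.46 and -0.97. On the FPKM scale its Dspp-/- to WT fold was 0.466 (0.402 to 0.540).

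Mmp8 and Mmp25 were higher in both mutant libraries. Mmp8, the collagenase stored in neutrophil granules, had 10.04 FPKM in WT, against 39.8 in Dspp+/- and 67.6 in Dspp-/-. Mmp25, the membrane-anchored leukolysin of neutrophils, had 0.745, 2.99 and 4.41 FPKM. The folds over WT were 3.96 (3.59 to 4.37) and 6.73 (6.13 to 7.41) for Mmp8, and 4.01 (3.14 to 5.17) and 5.92 (4.67 to 7.59) for Mmp25. For both genes Dspp-/- was the highest library and WT the lowest, whereas Mmp13 was highest in WT. Per 1000 FPKM of the neutrophil gene S100a9, Mmp8 was 43.2 FPKM in WT, against 43.4 in Dspp+/- and 50.5 in Dspp-/-, and Mmp25 was 3.21, 3.26 and 3.30 FPKM. S100a9 itself had 232, 916 and 1339 FPKM. The counting interval of the ratio to WT held 1 for Mmp8 in Dspp+/- (0.903 to 1.12) and for Mmp25 in both, and lay above 1 for Mmp8 in Dspp-/- (1.05 to 1.29). These ratios depend on the marker chosen. S100a9 was at 3.94 times WT in Dspp+/- and 5.77 in Dspp-/-. S100a8, Ltf, Ngp and Camp had 3.55 to 4.08 and 3.95 to 7.20, whereas Elane, Mpo, Prtn3 and Ctsg had 25.4 to 36.6 and 8.25 to 16.4.

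Mmp13, Mmp3 and Mmp8 lie in a cluster of MMP genes on chromosome 9, of which 7 genes in the table span 309373 bases and run Mmp13, Mmp12, Mmp3, Mmp1a, Mmp10, Mmp8 and Mmp27. Genes of this cluster differed in direction, since Mmp13 and Mmp3 were lower and Mmp8 higher in both mutant libraries. The other 4 of these genes were each below 0.5 FPKM in every library. The 250 bases before the RefSeq start of the 3 expressed genes (build GRCm38.p6, plus strand) are shown because they lie within 1 cluster and the genes differ in direction. Capitals mark TGANTCA, the motif of AP-1 factors, and ACCACA, which is the Runt-family motif TGTGGT on the other strand.
Mmp13, chr9:7272264-7272513: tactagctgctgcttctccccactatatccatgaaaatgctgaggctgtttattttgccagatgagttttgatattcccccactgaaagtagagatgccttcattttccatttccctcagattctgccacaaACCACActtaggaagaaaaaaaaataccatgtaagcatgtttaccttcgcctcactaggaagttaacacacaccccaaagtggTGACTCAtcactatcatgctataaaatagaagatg
Mmp3, chr9:7445572-7445821: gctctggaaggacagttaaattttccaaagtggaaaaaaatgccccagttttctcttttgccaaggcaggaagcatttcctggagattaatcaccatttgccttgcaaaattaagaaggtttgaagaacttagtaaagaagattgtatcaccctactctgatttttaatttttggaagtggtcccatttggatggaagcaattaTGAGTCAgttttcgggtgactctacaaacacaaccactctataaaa
Mmp8, chr9:7558179-7558428: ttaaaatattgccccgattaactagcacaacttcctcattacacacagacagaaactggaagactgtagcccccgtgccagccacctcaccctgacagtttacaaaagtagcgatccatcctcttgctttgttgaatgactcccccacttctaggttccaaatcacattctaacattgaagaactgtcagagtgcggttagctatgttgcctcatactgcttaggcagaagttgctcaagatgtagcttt
TGANTCA started 35 bases before the start of Mmp13, as TGACTCA, and 46 bases before that of Mmp3, as TGAGTCA. In the Mmp13 window, ACCACA lay 118 bases before the start. The Mmp8 window holds neither motif, which says only that these letters are not in it.

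Windows of this kind were at hand for 7 of the 9 members, those of Mmp2 and Mmp16 not being among the 32851 windows used. Searched on both strands, TGANTCA was in 2 of the 7 (Mmp13 and Mmp3) and in 6.75% of all windows. TGTGGT was in 2 of the 7 (Mmp13 and Mmp14) and in 14.05% of all windows. TATAAA, the letters of the TATA box, was in Mmp13 and Mmp3 and in 12.4% of all windows. It began 16 bases before the RefSeq start of Mmp13 and 7 bases before that of Mmp3, and its use as a TATA box was not tested. The other 5 windows, of Mmp11, Mmp14, Timp1, Timp2 and Timp3, each held GGGCGG, the GC box bound by Sp factors, which was in 32.7% of all windows. Mmp13 and Mmp3 had 1 CpG each in their windows, while the 5 windows with a GC box had 6 to 21, and the median of all windows was 6. No motif match was tested as a binding site.

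The genes whose pair of log2 ratios lay nearest to that of each member were found among 7126 other genes that averaged 5 FPKM or more. For Mmp13 it was Gja1, the gap junction gene of osteoblasts and osteocytes, with 71.9, 26.3 and 52.9 FPKM in WT, Dspp+/- and Dspp-/- and a distance of 0.028. Of the 7126 genes, 2 lay within 0.1 of Mmp13, 7 of Timp1, 9 of Timp3, 11 of Mmp16 and 14 of Mmp14. For Mmp2 there were 18, for Timp2 30, for Mmp3 74 and for Mmp11 119. Timp1 lay nearest to Col6a1, a type VI collagen gene with 312, 108 and 182 FPKM, at a distance of 0.030. For Mmp2 it was Cpe, the gene of carboxypeptidase E, with 243, 110 and 167 FPKM. The nearest genes of the other members were Cox6a1 for Mmp3, Elk3 for Mmp11, Tsku for Mmp14, Atp8b2 for Timp2, an entry named Aldoa for Mmp16, which is 1 of 2 with that symbol, and Rpl38-ps2 for Timp3. By its name Rpl38-ps2 is a pseudogene, so its value is uncertain if it shares reads with a near-identical copy, which was not examined. With 2 ratios to 1 shared WT library behind each distance, these are descriptions of 3 libraries. Mmp11 and Mmp16 averaged 3.38 and 2.68 FPKM, below the limit for the genes searched. The log2(FPKM + 1) scale therefore shrinks their ratios more than those of most genes searched, and their nearest genes depend on that scale.

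Other inhibitors and the genes that activate or clear MMPs were less uniform than the members. Of 4 other inhibitors, none was at least 2-fold lower or higher in either mutant library on the log2(FPKM + 1) scale. At any size, 2 were lower and 2 higher in Dspp+/-, and 1 lower and 3 higher in Dspp-/-. Timp4, the TIMP gene outside the members, was higher than WT in both, with 7.98 FPKM in WT, against 9.46 in Dspp+/- and 9.48 in Dspp-/-. Its folds over WT were 1.18 (1.09 to 1.29) and 1.19 (1.09 to 1.29). A2m, a broad protease inhibitor of plasma, came nearest, with 1.34, 1.37 and 3.42 FPKM, and its Dspp-/- to WT fold on the FPKM scale was 2.54 (2.15 to 3.02). Reck, a membrane-anchored inhibitor and the most abundant of them by the mean of the 3 libraries, had 13.9 FPKM in WT, against 7.98 in Dspp+/- and 10.4 in Dspp-/-. Of 9 genes of activation and clearance, 8 were compared, and 1 was at least 2-fold lower in Dspp+/- and none in Dspp-/-. Pcsk6, a convertase that cleaves protease precursors, had 40.1, 18.0 and 21.3 FPKM and log2 ratios of -1.11 and -0.88. Bsg, the MMP inducer basigin and the most abundant gene of the list, had 177, 143 and 115 FPKM.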

How the data were processed

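RNA of condyles from WT, Dspp+/- and Dspp-/- mice, 1 library per genotype, was poly(A)-selected and sequenced by CapitalBio Technology as paired reads of 150 bases. The submitters' processing notes name FastQC 0.11.5, HISAT2 2.1.0, StringTie 1.3.3b, DESeq 1.28.0 and hg38, a human build, although the samples are from mice. The authors deposited 1 value per gene and genotype without naming its unit, which was read as FPKM because FPKM times exon length (GENCODE M21) gave whole fragments, within 0.05, for 98.2% of the 26652 genes with an identifier there. The genome build of the table's positions is not given in the sources used here, and start and end equal those of GRCm38 for only 589 genes.

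Genes averaging 1 FPKM or more were compared as log2 ratios of FPKM + 1, with a limit of 2-fold. All members are named, with list genes past 2-fold, the most abundant gene of a list, and the nearest gene of each member. Some other list genes are named as context, after their values were seen. Members and lists were chosen with earlier results of these data known. Alternatives tried were a pseudocount of 0.1 or 5, no filter or a mean of at least 5 FPKM, other scalings, limits of 1.5-fold and 4-fold, and sums without Mmp13 and Timp2. TPM scaling was added after seeing the data. Scripts were tested on simulated data. Mmp1b, Mmp7 and Mmp20 were not analysed here, and 1 gene of the activation and clearance list is not reported here. Values were computed with scipy 1.17.1, pandas 2.3.3 and numpy 2.4.6 under Python 3.11.15, and drawn with matplotlib 3.10.9.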

Additional observations from a re-analysis of the deposited data

Results flagged for a closer look

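Timp3 had a log2 ratio to WT of -0.51 in Dspp+/- and 0.14 in Dspp-/-, opposite directions under the same contrast. Among the other MMP genes, Mmp15 also had opposite directions, with 0.20 in Dspp+/- and -0.29 in Dspp-/- and levels of 5.33 FPKM in WT, against 6.27 in Dspp+/- and 4.19 in Dspp-/-. Jun, which encodes a subunit of AP-1, had 0.11 in Dspp+/- and -0.17 in Dspp-/-, with 31.2, 33.7 and 27.6 FPKM. These 3 differences were not tested, since each genotype has 1 library.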

How the results depend on the processing

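All 9 members stayed lower than WT in Dspp+/- under every alternative that kept them, and 8 did so in Dspp-/-, while Timp3 in Dspp-/- turned from 0.14 to -0.038 under TPM scaling. The number of members at least 2-fold lower in Dspp+/- was 5, and it was 3 when the libraries were scaled without mitochondrial, hemoglobin, immunoglobulin and skeletal muscle genes, which moved the median of all genes to 0.19 in Dspp+/- and 0.11 in Dspp-/-. Under TPM scaling that median was -0.12 and -0.14. At a limit of 4-fold 0 members were lower in Dspp+/-, and at 1.5-fold 6 members were lower in Dspp+/- and 2 in Dspp-/-. The median of the members in Dspp+/- against Dspp-/- was -0.60, and it was -0.46 with a pseudocount of 5, -0.65 with median-ratio scaling, -0.64 with upper-quartile scaling, -0.56 without the named gene groups and -0.64 with TPM. The ratio of summed MMP to TIMP members was 2.43 in WT, against 1.93 in Dspp+/- and 2.35 in Dspp-/-, and 4.95, 4.43 and 4.00 without Mmp13 and Timp2. Over all genes, 373 were at least 2-fold lower and 636 higher in Dspp+/-, and 179 lower and 527 higher in Dspp-/-. In the same order these counts were 605, 971, 363 and 836 with a pseudocount of 0.1, and 156, 185, 45 and 136 with a pseudocount of 5. They were 1166, 1501, 1070 and 1152 at 1.5-fold, and 24, 124, 6 and 103 at 4-fold. With a mean of at least 5 FPKM, 281 genes were higher in Dspp+/- and 110 lower and 228 higher in Dspp-/-. TPM scaling gave 625 lower genes in Dspp+/- and 341 in Dspp-/-, and scaling without the named gene groups 260 in Dspp+/- and 104 in Dspp-/-. For the scalings, the cause was not tested. No paired analysis was possible because each genotype has 1 library. Counting error was small for the abundant members, and the spread between mice, which sets how firmly a difference can be stated, was not measured.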

Other observations

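Among 10 genes of the related ADAM and ADAMTS proteases, 2 were at least 2-fold lower and 1 at least 2-fold higher in Dspp+/-. In Dspp-/-, none was at least 2-fold lower and 1 was at least 2-fold higher. Adam12, a membrane-bound member of the family, had 16.1 FPKM in WT, against 5.71 in Dspp+/- and 11.3 in Dspp-/-. Adamts4, an aggrecanase, had 3.61, 1.17 and 2.31 FPKM. Both genes thus had the order of Mmp13, with Dspp+/- lowest and WT highest. Adam8, which leukocytes and osteoclasts express, had 1.04, 4.61 and 3.89 FPKM, and was the 1 gene of the list that was higher past 2-fold. Adamts5, the other main aggrecanase, lay close to WT in both mutant libraries, with 8.18, 7.64 and 7.36 FPKM, and was named after its values were seen. Adam10, the most abundant gene of the list in each library, had 23.9, 24.5 and 29.6 FPKM.

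Of 12 regulators of MMP genes, 8 were compared, none was at least 2-fold lower, and 1 was at least 2-fold higher in each mutant library. At any size, 4 were lower and 4 higher in Dspp+/-, and 5 lower and 3 higher in Dspp-/-. Il1b, the gene of the inflammatory cytokine interleukin 1 beta, had 0.259 FPKM in WT, against 3.44 in Dspp+/- and 1.81 in Dspp-/-, with folds over WT of 13.3 (7.03 to 28.3) and 7.00 (3.61 to 15.2), on 10 fragments in WT. Runx2, a Runt-family factor of osteoblasts and hypertrophic chondrocytes named after its values were seen, had 17.7, 9.90 and 13.8 FPKM. Fos was just short of 2-fold in Dspp-/-, with a log2 ratio of 0.99 and 5.08, 8.64 and 11.1 FPKM. Its folds on the FPKM scale were 1.70 (1.45 to 1.99) and 2.19 (1.88 to 2.55). Fosl2, Junb and Jund were lower, at 0.593 to 0.685 times WT in Dspp+/- and 0.580 to 0.667 in Dspp-/-. Mef2c, a factor of hypertrophic chondrocytes and muscle and the most abundant of the list by the mean of the 3 libraries, had 36.7, 42.5 and 43.0 FPKM. Il1b and the MMP members thus differed in direction in these libraries.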
